A study of Mus musculus with 4 samples.

Results

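The 56 genes described here are the histone genes of mouse leukaemia stem cells whose symbols follow the naming of the clustered, replication-dependent histones. They are the rows of a table of 16442 genes whose symbol begins with Hist1h, Hist2h, Hist3h or Hist4h, or with H1f, H2ac, H2bc, H3c or H4c followed by a digit. By class they comprise 7 H1, 15 H2A, 13 H2B, 10 H3 and 11 H4 genes. The cells were isolated from the bone marrow of C57BL/6 mice with leukaemia, either wild type (WT) or carrying a knockout of Rreb1 (KO), and poly(A) RNA was sequenced from 2 libraries per group. The labels name 2 biological replicates per group, but give neither how the leukaemia was started, nor the age of the mice, the part of Rreb1 removed or how many mice went into a library. KO replicate 2 has a genotype label that names Rreb2 in place of Rreb1, and the RNA extraction text speaks of TAMs, an abbreviation it does not explain, while the titles say LSC.

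Histones package DNA. H2A, H2B, H3 and H4 form the nucleosome core, and H1, the linker histone, binds where DNA enters and leaves it. The replication-dependent genes lie in clusters, have no introns and are transcribed mainly in S phase, when new DNA must be wrapped. Their mRNAs normally end in a conserved stem-loop, bound by the protein Slbp, and carry no poly(A) tail, although polyadenylated forms of some of them are known, in differentiating cells among others. Selection on oligo-dT beads keeps polyadenylated RNA, so the levels below describe what passed that selection. In these libraries more histone mRNA and a larger polyadenylated share of it cannot be told apart, and neither can more cells in S phase and more RNA per cell.

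The name of the set holds for most members but not all. H1f0 and H1f10 are replication-independent linker histones with ordinary polyadenylated mRNAs, and they met the naming rule. The annotated transcripts of H2bc4, H2bc21, H4c1 and H4c11 also run more than 100 bases past the stop codon without a stem-loop match. H2ac14 is annotated as an unprocessed pseudogene in GENCODE M21, and H2ac5-ps, a pseudogene by its symbol, was not matched to that annotation. Of the 55 members that were matched, 49 lay on chromosome 13 (GRCm38), 22 of them between positions 21715763 and 22043676 and 27 between 23531050 and 23764406. A further 4 lay on chromosome 3, H1f0 on chromosome 15 and H1f10 on chromosome 6.

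The stem-loop is the feature that sets these mRNAs apart, and its letters are shown for 6 members on which the results turn, from GENCODE M21 transcripts, 5′ to 3′ with the stem-loop in capitals.
H1f4: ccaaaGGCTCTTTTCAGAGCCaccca
H2ac8: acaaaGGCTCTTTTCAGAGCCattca
H2bc8: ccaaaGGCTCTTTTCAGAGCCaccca
H2bc14: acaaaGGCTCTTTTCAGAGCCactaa
H3c6: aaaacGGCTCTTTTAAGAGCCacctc
H4c4: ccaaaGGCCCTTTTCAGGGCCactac
Each line reads as a stem, a loop and the complementary stem. H1f4, H2ac8, H2bc8 and H2bc14 have the same 16 letters, while H3c6 and H4c4 each have their own version. The stem-loop was searched on the transcript strand after the stop codon as GGC, any base, CTTTT, any base, AG, any base and GCC in a row. These letters were present in 44 of 21830 protein-coding genes (0.202%), and 35 of these 44 were members. The annotated transcript ran on for more than 100 bases past the stem-loop in 16 of the 35 and ended within 100 bases of it in 19. H1f5 has no stem-loop above because its annotated transcript ends at the stop codon, as do, within 100 bases, those of 12 other members.

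Upstream sequence is shown for H1 genes, among them H1f4 and H1f5, whose log2 fold changes were the highest of the tested members. The lines give the 120 bases before the start of each gene from RefSeq (GRCm38.p6), 5′ to 3′ on the gene's strand, with the letters AAACACA (known as the H1 box), CCAAT on either strand and TATAAA in capitals.
H1f5: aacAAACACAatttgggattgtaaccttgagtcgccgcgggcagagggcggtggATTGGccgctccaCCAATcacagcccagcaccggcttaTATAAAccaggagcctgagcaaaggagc
H1f4: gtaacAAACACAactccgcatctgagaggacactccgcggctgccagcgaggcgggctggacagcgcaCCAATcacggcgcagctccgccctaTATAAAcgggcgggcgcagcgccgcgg
H1f2: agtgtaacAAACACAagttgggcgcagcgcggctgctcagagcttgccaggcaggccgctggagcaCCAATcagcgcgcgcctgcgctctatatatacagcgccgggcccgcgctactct
H1f1: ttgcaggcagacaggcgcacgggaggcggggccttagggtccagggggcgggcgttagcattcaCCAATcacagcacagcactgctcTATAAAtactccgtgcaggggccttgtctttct
The windows are chr13:21780626-21780745 for H1f5 and chr13:23622559-23622678 for H1f4, both on the minus strand, and chr13:23738687-23738806 for H1f2 and chr13:23763548-23763667 for H1f1, both on the plus strand. The H1 box lay 117, 115 and 112 bases before the start of H1f5, H1f4 and H1f2 and was not among these letters of H1f1. The 120 bases before the start of H1f3, which are not shown, held no complete match. They open with acaca, the last letters of the box, so whether the 120-base limit cut a box there cannot be told. Over the 44 members with a RefSeq promoter window, searched on both strands, CCAAT was present in 37 (84.1%, against 37.4% of all 32851 windows of the same length) and TATAAA in 26 (59.1%, against 13.6%). The octamer ATTTGCAT, an Oct1 binding motif known from H2B promoters, was present in 5 of 10 H2A and 5 of 11 H2B windows and in 1.74% of all windows. Some H2A and H2B genes lie head to head, so a match between their starts can count for both genes, and such windows are not independent. AAACACA was present in 4 of 7 H1 windows, which reach beyond the 120 bases above, and in 7.18% of all. These are matches of letters and say nothing about what was bound in these cells.

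Depth was 16590830 to 18451251 assigned reads per library, recovered from the table. Reads of the 55 matched members made up 0.0935% and 0.0968% of assigned reads for WT and 0.113% and 0.150% for KO. The targeted gene did not mark the groups: Rreb1 stood at 5.24 and 6.57 FPKM (reads per length of exon and per depth of the library, after 1 was subtracted from every deposited value) in WT and at 6.10 and 6.93 FPKM in KO. KO and WT below therefore stand for the labels of the libraries. The groups also differed in markers of other cells. Of mature neutrophil markers, 8 of 12 rose in KO by limma (summed level 1281 and 1307 FPKM in WT, 2951 and 3536 in KO), as did 5 of 8 tested erythroid markers, which were the globins and Alas2 (summed level of the list 113 and 91.6, then 423 and 516). The other 3 erythroid markers, Car1, Car2 and Klf1, were lower in both KO libraries than in both WT libraries (log2 fold changes −2.67, −1.46 and −0.72), and limma called none of them, Car1 being nearest with an adjusted p of 0.0532. Of macrophage markers 4 of 8 fell (485 and 428, then 309 and 290), as did 3 of 6 B cell markers (227 and 217, then 138 and 122), while the B cell marker Cd79a was at 1.79 and 1.82 FPKM in WT and 3.09 and 3.71 in KO (log2 0.65, limma adjusted p = 0.101). Over all tested rows limma called 0.603% higher and 0.408% lower. Of 12 progenitor and leukaemia markers limma called 0. Groups did not overlap for 9 of them, 4 above and 5 below, against 30.5% above and 24.9% below over all rows. With limma-voom 1 was called higher and 4 lower, against 3.53% and 3.16% of all rows. Among these 12 markers Kit had a log2 fold change of 0.74, Mpo of −0.97, Cd34 of −0.47, Flt3 of −0.52 and Gata2 of −0.58. The part of these cells in the histone values was not tested.

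Histone genes as a set stood higher in KO, mainly in KO replicate 2. Their summed level was 1132 and 1217 FPKM for WT and 1364 and 1856 FPKM for KO, a fold of 1.37 between the means. KO replicate 1 was 1.16 times the WT mean and KO replicate 2 was 1.58 times. The groups did not overlap, but an exact permutation test of 2 libraries against 2, two-sided, cannot give a p below 0.33, which is the value here. Of the 56 members, 52 had a mean of at least 1 FPKM and were tested; H1f3, H2ac10, H3c15 and H4c1 were below it, between 0.136 and 0.980 FPKM in any library. Among the 52, the log2 fold change on log2(FPKM + 1) had a median of 0.31, against 0.03 over all 11768 tested rows, and 38 lay above 0 (73.1%, against 54.0%).

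By limma with Benjamini-Hochberg adjustment over all tested rows, 1 of 52 members passed an adjusted p of 0.05 as higher in KO (1.92%, against 0.603% of all rows) and 0 passed as lower (against 0.408%). At an unadjusted p below 0.05, limma gave 17 members higher (32.7%, against 11.4%) and 1 lower (1.92%, against 9.35%). With limma-voom on recovered reads, 5 of 51 members passed as higher and 1 as lower, against 3.53% and 3.16% of all rows. Both KO libraries lay above both WT libraries for 26 of 52 members (against 30.5% of all rows) and below for 4 (7.69%, against 24.9%). KO replicate 2 was the highest of the 4 libraries for 36 members (69.2%, against 33.4%). KO replicate 1 taken alone lay above both WT libraries for 27 members (51.9%, against 40.4%), and KO replicate 2 for 40 (76.9%, against 42.9%). Without KO replicate 2, the library whose genotype label differs, limma called 0 members higher and 0 lower, but it then called only 0.119% of all rows higher and 0.0255% lower. The median log2 fold change of members was 0.15 in that fit, against 0.02 over all rows.

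**Figure D1:**
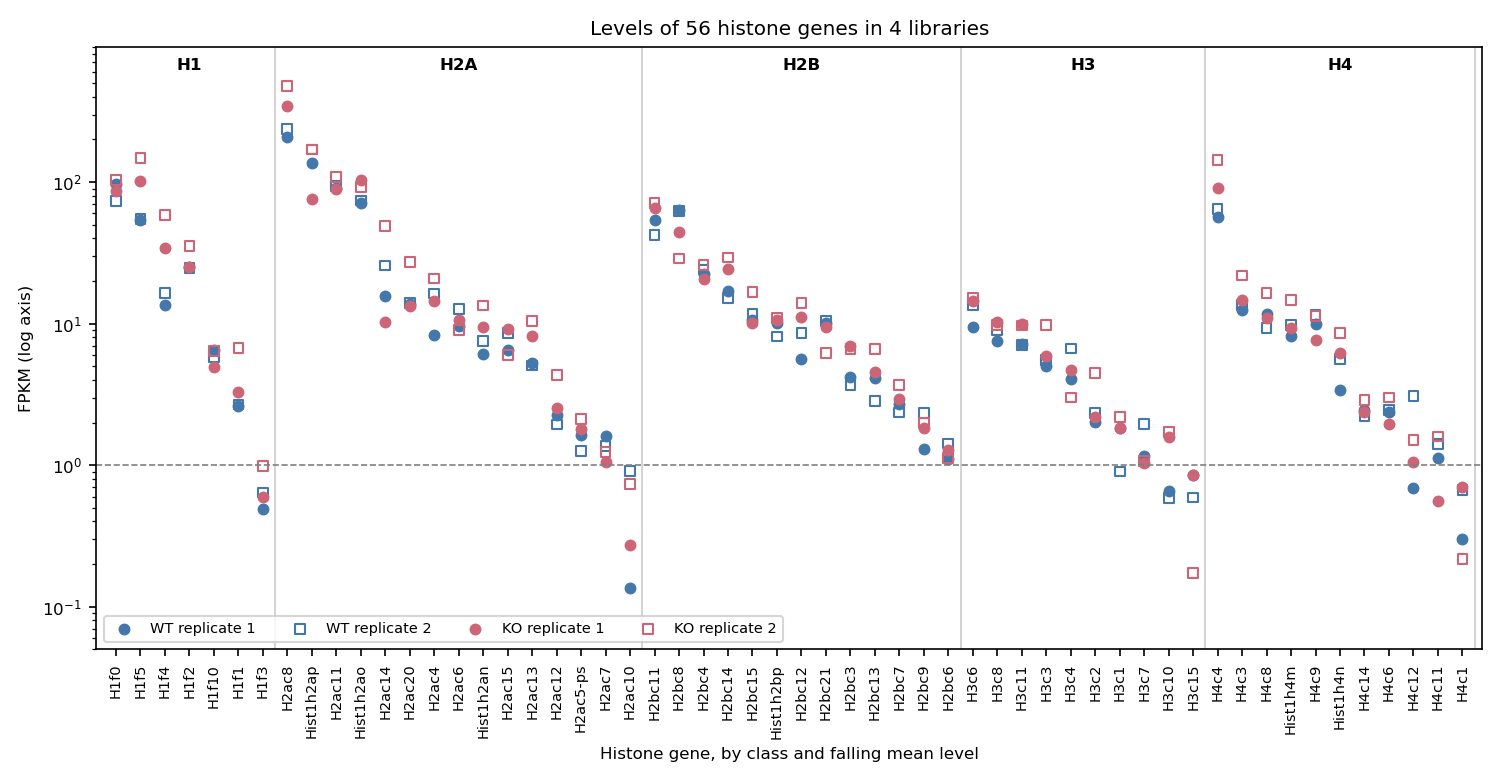
Level of each of the 56 histone genes in FPKM (log axis) in 4 libraries, by class and falling mean level; filled points are replicate 1, open squares replicate 2, and the dashed line marks the 1 FPKM a gene's mean had to reach to be tested. Levels span from under 1 FPKM to the 476 FPKM of H2ac8 in KO replicate 2, and the open red squares of that library are often the top mark.

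The linker histones H1 held the only called member and the highest log2 fold change among the tested members. H1f5 (chromosome 13, 21779883 to 21780625, minus strand) was at 53.8 and 54.9 FPKM in WT and at 101 and 148 FPKM in KO. Its groups were far apart, and the WT libraries were nearly equal. The log2 fold change was 1.16 (SE 0.17), with a limma adjusted p of 0.0497, and over the alternative settings the adjusted p ran from 0.00113 to 0.238. Without KO replicate 2 the log2 fold change was 0.89 (limma adjusted p = 0.0920). The call held with limma-voom and without KO replicate 1, and it was lost under the other 8 alternatives, those without either WT library included. H1f5 shared none of its 100-base windows with another annotated gene.

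H1f4 (chromosome 13, 23620629 to 23622558, minus strand) showed the largest log2 fold change of the 52 tested members but missed the threshold. H1f4 did pass with limma-voom and when replicate number entered the limma fit (adjusted p = 0.0327). It was at 13.5 and 16.4 FPKM in WT and at 34.1 and 58.6 FPKM in KO, with no overlap and with KO replicate 2 again the highest. Its log2 fold change was 1.53 (SE 0.24, limma adjusted p = 0.0573), and the adjusted p ran from 0.00113 with limma-voom to 0.274 over the alternatives. Without KO replicate 2 it was 1.15 (limma adjusted p = 0.129). Of the exonic bases of H1f4, 25.7% are also covered by H2bc6 or Gm11398 on the same strand, and reads from there cannot be assigned to 1 gene.

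The other H1 genes moved less. H1f2 was at 25.0 and 24.7 FPKM in WT and at 25.3 and 35.6 in KO, so only KO replicate 2 stood apart. H1f1 was at 2.63 and 2.68 FPKM in WT and at 3.30 and 6.73 in KO, and H1f3 stayed below 1 FPKM in every library. The summed level of the 5 H1 genes without the replication-independent ones was 95.4 and 99.3 FPKM in WT and 165 and 250 in KO, a fold of 2.13, and KO replicate 1 alone was 1.69 times the WT mean (exact permutation p = 0.33, the smallest possible).

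The polyadenylated linker histones did not follow H1f4 and H1f5 in size. Nor did H1f2, which has the stem-loop letters (log2 fold change 0.26, 95% limits −0.12 to 0.64). H1f0, the linker histone of slowly dividing and differentiated cells, was at 96.4 and 73.5 FPKM in WT and at 86.5 and 103 in KO. The groups overlapped, its log2 fold change came to 0.16 (95% limits −0.21 to 0.53; adjusted p = 0.568 by limma), and it turned to −0.030 without WT replicate 2. H1f10 was at 6.46 and 5.79 FPKM in WT and at 4.95 and 6.41 in KO, with a log2 fold change of −0.10 (95% limits −0.44 to 0.24) that turned to 0.059 without KO replicate 1. The limits of H1f5 (0.74 to 1.58) lie above those of H1f0, H1f10 and H1f2, although the differences between genes were not tested.

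**Figure D2:**
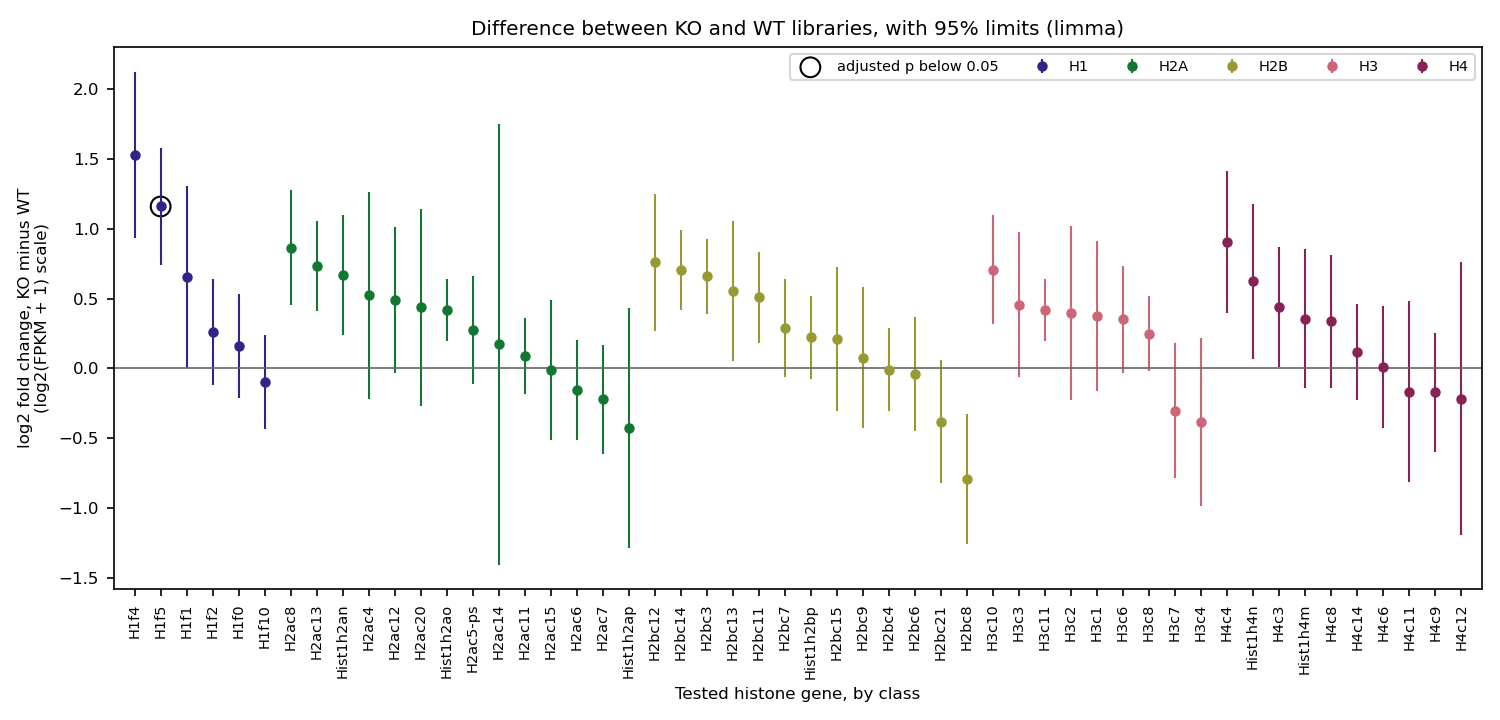
Log2 fold change of each tested histone gene, KO minus WT on log2(FPKM + 1), with 95% limits from limma; colours mark the class and the ring marks the gene with an adjusted p below 0.05. H1f4 and H1f5 stand highest at 1.53 and 1.16, H2bc8 lowest at −0.79, and 38 of 52 points lie above 0.

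H2A genes supplied 51.0% to 55.1% of the summed FPKM of all members in the 4 libraries, and H2ac8 was the most abundant member of all. H2ac8 (chromosome 13, 23570517 to 23571220, minus strand) was at 208 and 238 FPKM in WT and at 346 and 476 FPKM in KO. Both KO libraries were above both WT libraries, with a log2 fold change of 0.86 (SE 0.17, limma adjusted p = 0.0869). With limma-voom it passed (adjusted p = 0.00274), and without KO replicate 2 it was 0.64 (limma adjusted p = 0.265). The class sum was 578 and 671 FPKM in WT and 695 and 990 in KO, a fold of 1.35. Leaving out H2ac8, the sum was 370 and 433 FPKM in WT and 349 and 515 in KO, so the groups overlapped and the fold was 1.08.

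The next H2A genes by level did not move together. Hist1h2ap was at 137 and 170 FPKM in WT and at 75.6 and 170 in KO, the lower KO value being replicate 1. Its log2 fold change was −0.42 (limma adjusted p = 0.518) and turned to 0.16 without that library. H2ac11 was at 91.1 and 93.5 FPKM in WT and at 89.0 and 108 in KO, with a log2 fold change of 0.09 that turned to −0.052 without KO replicate 2. Hist1h2ao, named because of its values, had 71.0 and 74.1 FPKM in WT and 103 and 92.1 in KO (log2 0.42, limma adjusted p = 0.107). Hist1h2ap and Hist1h2ao share 92.2% and 92.7% of their 100-base windows with other genes, and H2ac11 shares 76.2%, so reads could be split between copies in ways that the authors' counting decides.

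Of 14 tested H2A genes, 10 had a log2 fold change above 0 (median 0.35) and 0 were called by limma. By limma 4 had an unadjusted p below 0.05 as higher (28.6%, against 11.4% of all rows). H2ac13 was among them, at 5.24 and 5.06 FPKM in WT and 8.15 and 10.5 in KO (log2 0.74, limma adjusted p = 0.0739). The pseudogene H2ac14 had the widest 95% limits of the tested members of the class on the log2 scale, −1.40 to 1.75, at 15.7 and 25.7 FPKM in WT and 10.3 and 49.0 in KO. H2ac13 and H2ac14 were chosen after their values were seen. For 14 of the H2A genes an annotated small gene overlaps the exons, and since the counting is not stated to use strand, its reads cannot be told apart from theirs.

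H2B genes included the member of lowest fold change beside several of the higher ones. H2bc8 (chromosome 13, 23571396 to 23572013, plus strand) was at 63.7 and 62.3 FPKM in WT and at 44.6 and 28.9 FPKM in KO. Both KO libraries were below both WT libraries, and KO replicate 2 was the lowest. The log2 fold change of −0.79 (SE 0.19) was the lowest of the tested members, with a limma adjusted p of 0.118. It passed with limma-voom (adjusted p = 0.0135) and was −0.49 without KO replicate 2 (limma adjusted p = 0.263).

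H2bc11, the H2B gene of highest mean level, was at 54.1 and 42.0 FPKM in WT and at 65.2 and 71.5 in KO (log2 0.51, limma adjusted p = 0.135). H2bc4 was at 22.5 and 24.1 FPKM in WT and at 20.7 and 25.9 in KO, with overlapping groups and a log2 fold change of −0.01. H2bc14 was at 16.9 and 15.2 FPKM in WT and at 24.2 and 29.3 in KO. For H2bc14 the groups lay well apart (log2 0.70, SE 0.12, limma adjusted p = 0.0639), and limma-voom called it (adjusted p = 0.0456). H2bc3, at 4.16 and 3.68 FPKM in WT and 6.95 and 6.59 in KO, had a log2 fold change of 0.66 (limma adjusted p = 0.0648) and was, unlike most members, slightly higher in KO replicate 1. H2bc14 and H2bc3 were chosen after their values were seen. The class sum was 207 and 195 FPKM in WT and 213 and 224 in KO, a fold of 1.09, the smallest of the 5 classes, and the share of H2B in the summed FPKM of all members was 18.3% and 16.0% in WT and 15.7% in KO replicate 1, with a still lower share in KO replicate 2.

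H3 and H4 form the tetramer at the centre of the nucleosome. The H3 genes in the table were at low levels: H3c6, the highest, was at 9.53 and 13.5 FPKM in WT and at 14.4 and 15.1 in KO (log2 0.35, limma adjusted p = 0.267). H3c8 was at 7.57 and 8.98, then 10.2 and 9.75 FPKM (log2 0.25, limma adjusted p = 0.266). H3c11 was at 7.12 and 7.04 FPKM in WT and at 9.91 and 9.71 in KO (log2 0.42, limma adjusted p = 0.104). For all 3 the groups did not overlap, and for H3c8 and H3c11 KO replicate 1 was the highest library. H3 genes summed to 39.8 and 48.1 FPKM in WT and 52.6 and 56.9 in KO, a fold of 1.25, with 7 of 9 tested above 0 and 0 called.

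H4c4 (chromosome 13, 23581598 to 23582735, plus strand) dominated the H4 class. It was at 57.0 and 64.6 FPKM in WT and at 91.0 and 144 FPKM in KO, with no overlap. The log2 fold change was 0.90 (SE 0.21, limma adjusted p = 0.115), limma-voom called it (adjusted p = 0.00844), and without KO replicate 2 it was 0.58 (limma adjusted p = 0.265). H4c4 shared none of its 100-base windows with another gene. H4c3 was at 12.5 and 13.5 FPKM in WT and at 14.8 and 21.8 in KO (log2 0.44, limma adjusted p = 0.236), and H4c8 was at 11.6 and 9.36, then 11.0 and 16.5 FPKM, with overlap. The class sum was 110 and 124 FPKM in WT and 147 and 226 in KO, a fold of 1.59. Without H4c4 it was 52.6 and 59.5 FPKM, then 55.6 and 82.2, with overlap and a fold of 1.23, and KO replicate 1 then lay between the WT libraries.

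**Figure D3:**
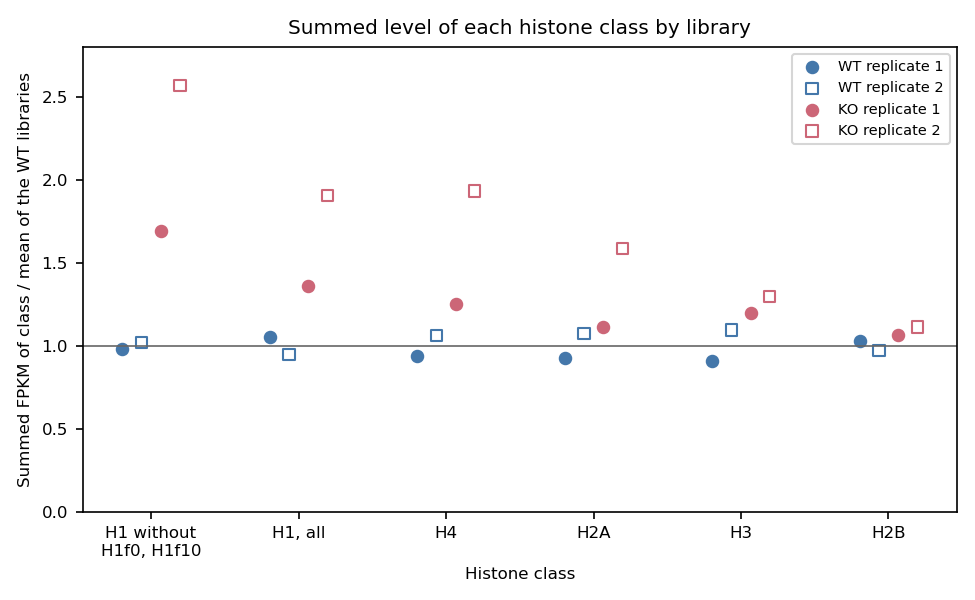
Summed FPKM of each histone class in each library divided by the mean of the WT libraries. KO replicate 2 is the highest library in all 6 groups drawn, from 1.11 times the WT mean for H2B to 2.57 times for H1 without H1f0 and H1f10, while KO replicate 1 lies between 1.06 and 1.69 times.

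The mean summed level was 435 FPKM higher in KO than in WT, and H2ac8 alone differed by 188 FPKM, H1f5 by 70.4, H4c4 by 56.5 and H1f4 by 31.4. In the other direction the difference was −30.6 FPKM for Hist1h2ap and −26.2 for H2bc8. Without H2ac8 the sum of the other 55 rows was 924 and 979 FPKM in WT and 1017 and 1380 in KO, a fold of 1.26, still without overlap. Both blocks of genes on chromosome 13 took part. In the first, 17 of 22 tested members lay above 0 (median log2 fold change 0.42), with a summed level of 521 and 568 FPKM in WT and 571 and 800 in KO, so KO replicate 1 was close to WT replicate 2. In the second, 17 of 24 lay above 0 (median 0.31), with 480 and 540 FPKM in WT and 674 and 908 in KO, and the groups were further apart. The second block holds H1f4, H2ac8, H2bc8 and H4c4, and the first holds H1f5.

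H2A and H2B genes often lie head to head and share the DNA between their starts. In these data 10 such pairs had both genes tested, with 175 to 301 bases between the annotated genes. The 2 genes had log2 fold changes of the same sign in 6 pairs, both above 0 in 5 and both below in 1, and of opposite sign in 4. H2ac8 and H2bc8 formed the pair that differed most, 0.86 against −0.79, with neither gene's groups overlapping. H2ac20 and H2bc21 on chromosome 3 also lay apart (0.44 against −0.38), but the groups of H2ac20 overlapped, at 13.8 and 13.9 FPKM in WT and 13.4 and 27.1 in KO. H2ac7 and H2bc7 had log2 fold changes of −0.22 (SE 0.16) and 0.29 (SE 0.14), and neither gene's groups overlapped. H2ac15 and H2bc15 stood at −0.01 and 0.21, and the groups of both overlapped. In 3 pairs both genes lay above WT in both KO libraries: H2ac13 and H2bc13 (0.74 and 0.55), H2ac12 and H2bc12 (0.49 and 0.76), and Hist1h2an and Hist1h2bp (0.67 and 0.22). None of these genes passed the limma threshold. All genes of these pairs but those fixed by the naming rule were chosen after their values were seen.

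The DNA between the starts of H2ac8 and H2bc8 is shown because its 2 genes went opposite ways. It is chr13:23571221-23571399 (RefSeq, GRCm38.p6), 5′ to 3′ on the plus strand from H2ac8 on the left to H2bc8 on the right, with CCAAT on either strand, the octamer and TATAAA in capitals.
H2ac8-H2bc8: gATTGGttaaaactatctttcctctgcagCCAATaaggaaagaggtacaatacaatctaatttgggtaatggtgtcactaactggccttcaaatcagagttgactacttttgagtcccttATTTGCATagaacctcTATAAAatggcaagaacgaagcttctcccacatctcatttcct
The octamer and TATAAA lie on the H2bc8 side, and the CCAAT letters lie on the H2ac8 side.

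**Figure D4:**
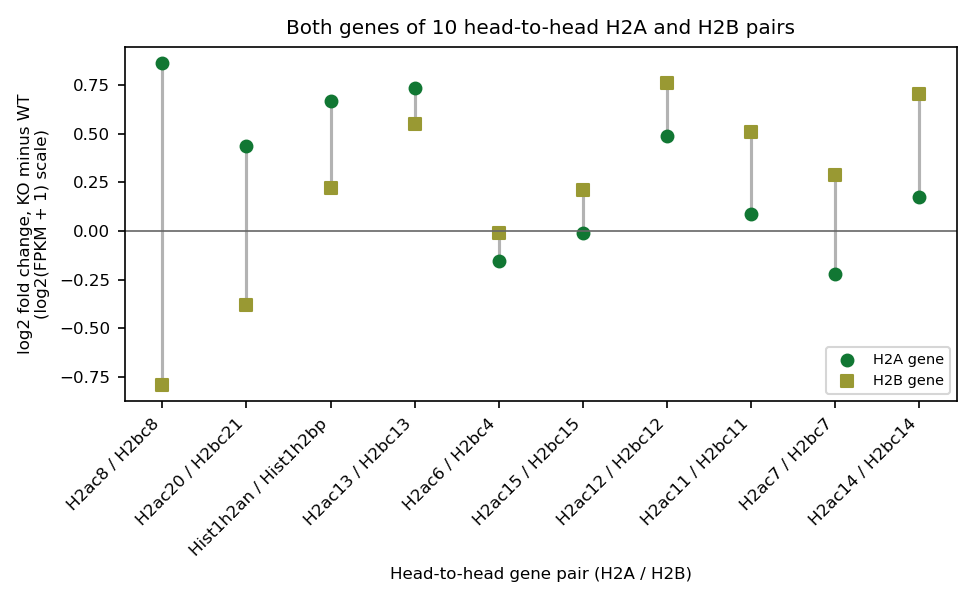
Log2 fold change (KO minus WT, log2(FPKM + 1) scale) of the H2A gene (circle) and the H2B gene (square) in each of 10 head-to-head pairs, joined by a line. The longest line is that of H2ac8 and H2bc8, from 0.86 to −0.79, and in 5 pairs both marks lie above 0.

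Members were also grouped by their annotated 3′ ends. The 19 members whose transcript ends within 100 bases of the stem-loop had a median log2 fold change of 0.40, with 17 of 19 above 0 and KO replicate 2 above both WT libraries in 18. The 14 tested members whose transcript runs on past the stem-loop, among them H1f4, H2ac8, H2bc8 and H4c4, had a median of 0.10 and ran from −0.79 to 1.53. Of these named genes, only H2ac8 held AATAAA, the poly(A) signal, after the stop codon, 28 bases before the transcript's end. The 12 tested members whose transcript ends near the stop codon, H1f5 among them, had a median of 0.52 with 10 above 0. The 5 tested members with a longer transcript and no stem-loop letters, H1f0 and H1f10 among them, had a median of −0.10 with 1 above 0. AATAAA lay 22 bases before the transcript's end in H1f0 and H2bc21, 21 in H1f10, 11 in H4c11 and 447 in H2bc4. H2bc21 was at 10.1 and 10.5 FPKM in WT and at 9.47 and 6.16 in KO (log2 −0.38, limma adjusted p = 0.285). The 3′ end groups differ in level and in how many sequences they share with other genes. The differences between the 3′ end groups were not tested.

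**Figure D5:**
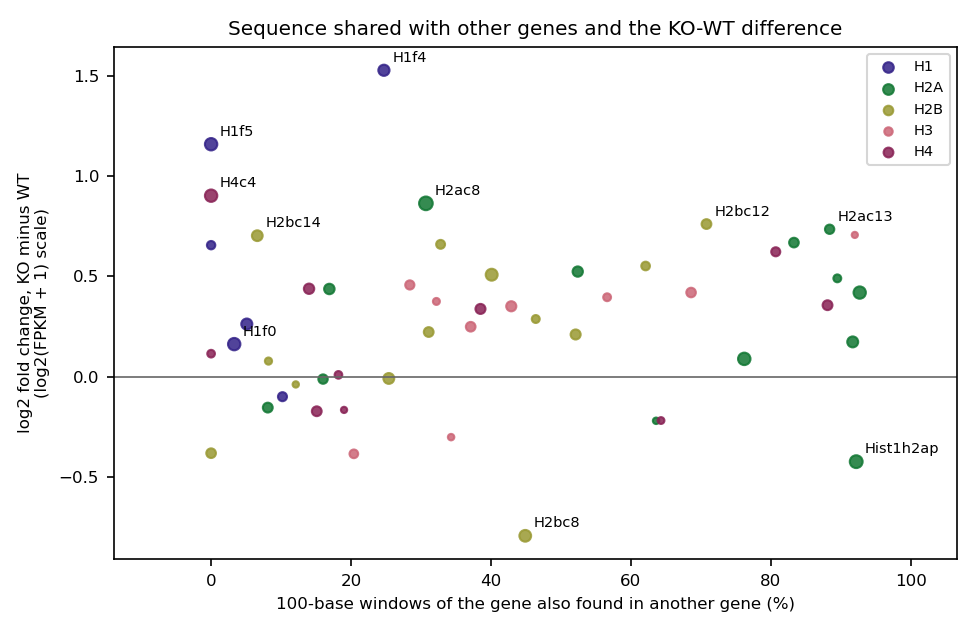
Log2 fold change (KO minus WT, log2(FPKM + 1) scale) against the percent of a gene's 100-base windows found in another annotated gene, for 51 tested members; colour marks the class and a larger point a higher mean level. H1f5 and H4c4 stand high at 0% shared, and Hist1h2ap lies at 92.2% with −0.42.

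Many members share sequence with each other, to unequal degrees within a class. Among H4 genes, H4c4 and H4c14 shared 0% of their windows and Hist1h4m shared 88.1%. The 10 tested members with up to 10% of their windows shared had a median log2 fold change of 0.21, with 8 above 0. The 23 members above 10% and up to 50% had a median of 0.25 with 14 above 0, and the 18 above 50% had a median of 0.42 with 15 above 0. Single values are least certain for members with many shared windows, and H2ac8 (30.7%) and H2bc8 (44.9%) also share windows with 32 and 13 other genes.

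Genes that act on histone mRNA held no limma call. Of 25 tested genes for transcription and 3′ processing of histone mRNA, limma called 0 and the median log2 fold change was 0.03. At an unadjusted p below 0.05, limma gave 2 higher and 0 lower, against 11.4% and 9.35% of all rows. With limma-voom 0 were called. Slbp, the stem-loop binding protein, was at 68.0 and 73.7 FPKM in WT and at 77.9 and 67.5 in KO, with a log2 fold change of 0.03 whose sign changed when medians were made equal (−0.0051). Npat, the coactivator of histone gene transcription, was at 3.42 and 3.82 FPKM in WT and at 4.21 and 5.07 in KO (log2 0.29, limma adjusted p = 0.269). Yy1, a transcription factor, was at 4.06 and 4.62, then 5.56 and 8.89 FPKM (log2 0.59, limma adjusted p = 0.192), and Sympk, the scaffold symplekin of the cleavage complex, had a log2 fold change of 0.32 (limma adjusted p = 0.236).

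The genes listed as replication-independent variants had a median log2 fold change of −0.10 over 10 tested genes, H1f10 included. Of these, 3 lay above 0 and limma called 0. At an unadjusted p below 0.05, limma gave 1 higher and 1 lower, against 11.4% and 9.35% of all rows. H2ax, the variant phosphorylated at DNA breaks, was at 269 and 308 FPKM in WT and at 239 and 185 in KO (log2 −0.45, limma adjusted p = 0.183), and limma-voom called it lower. H3f3a, which codes for H3.3, was at 213 and 228, then 272 and 263 FPKM (log2 0.28, limma adjusted p = 0.191). H3f3b, coding for the same protein and also named because of its values, had 619 and 580 FPKM in WT and 558 and 477 in KO. Cenpa, the centromeric H3, was at 48.1 and 51.2, then 46.7 and 40.8 FPKM (log2 −0.18, limma adjusted p = 0.33).

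Neither S phase nor mitosis genes held a limma call. Of 40 tested DNA replication genes, 25 lay above 0 (against 54.0% of all rows) and the median was 0.06. At an unadjusted p below 0.05, limma gave 5 higher and 3 lower, against 11.4% and 9.35% of all rows. With limma-voom 1 was called higher, against 3.53% of all rows. Both KO libraries lay above both WT libraries for 18 of the 40 and below for 7, against 30.5% and 24.9% of all rows. Lig1, DNA ligase 1, had the smallest p and was at 42.6 and 42.1 FPKM in WT and at 51.6 and 56.2 in KO (log2 0.34, limma adjusted p = 0.125). Rpa1, of the single-strand binding complex, had a log2 fold change of −0.29, and Mcm4, of the replicative helicase, of 0.26 (limma adjusted p = 0.158 for both). Of 18 tested mitosis genes limma called 0, 14 lay below 0 and the median was −0.11. At an unadjusted p below 0.05, limma gave 1 higher and 6 lower, against 11.4% and 9.35% of all rows. With limma-voom 4 were called lower and 1 higher, against 3.16% and 3.53% of all rows. Ccnb1, Plk1 and Aurka, a cyclin and 2 kinases of mitosis, had log2 fold changes of −0.39, −0.38 and −0.47 (limma adjusted p between 0.118 and 0.126).

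Of 19 tested histone chaperones, which hand histones to DNA, limma called 0 and the median was −0.02. At an unadjusted p below 0.05, 2 were higher and 3 lower by limma, against 11.4% and 9.35% of all rows. Rbbp7, a subunit shared by chaperone and deacetylase complexes, had a log2 fold change of −0.31, Supt16, of the FACT complex, of 0.35, and Anp32e, which removes H2A.Z, of −0.34.

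Values were also read for RNAs listed as carrying no poly(A) tail, of which 10 of 21 were in the data. Whether their reads came from RNA without a tail or from longer transcripts over the same bases was not tested. Of the 9 tested, limma called 0, 5 lay above 0 and the median was 0.18. At an unadjusted p below 0.05, 1 was higher and 1 lower by limma, against 11.4% and 9.35% of all rows. Snord13, a small nucleolar RNA, was at 31.8 and 27.2 FPKM in WT and at 42.3 and 53.1 in KO (log2 0.67, limma adjusted p = 0.0909). Snord17 was at 8.43 and 13.4, then 5.70 and 7.40 FPKM (log2 −0.64, limma adjusted p = 0.193), and Scarna13, of the Cajal body RNAs, had a log2 fold change of −0.58. The summed level of the list was 124 and 117 FPKM in WT and 115 and 161 in KO, so KO replicate 2 was again the highest library while KO replicate 1 was the lowest. Whether the selection let more RNA without a tail through in KO replicate 2 was not tested.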

How the data were processed

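RNA of 4 libraries was compared. The submitters' processing notes name GRCm38, DESeq2, featureCounts, HISAT2 2.1.0 and CASAVA, with no roles; the annotation and any strand setting are not known here. The authors deposited 1 table without a named unit, whose values behaved as FPKM with 1 added; that 1 was subtracted. Whole reads were recovered through GENCODE M21 exonic lengths: 98.9% to 99.2% of values of up to 30 reads were whole within 0.05, for 15957 of 16191 matched rows (98.6%). At these depths 3 reads on a gene of 0.5 kb stand for 0.325 to 0.362 FPKM (counting error only). The labels call the replicates biological; replicates differed beyond sampling noise (chi-square per gene 10.9 in WT and 13.2 in KO).

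Libraries were grouped by title. Differences were tested with limma 3.58.1 in R 4.3.3 (trend form, two-sided) on log2(FPKM + 1) for 11768 rows with a mean of at least 1 FPKM, with 2 residual and 4.10 prior degrees of freedom and Benjamini-Hochberg adjustment at 0.05. Fold changes on this scale understate those of low genes. Sums were compared by exact permutation. Reads were simulated for 11506 genes of this comparison, with 1 fixed spread between replicates for every gene, not taken from these libraries. On them the fit found 35.4% of genes with a true fold of 1.5, 88% at 2 and 100% at 3. It called 19 unchanged genes. These shares need not hold for members whose replicates differed more, such as H1f4. Alternatives were another pseudocount, other filters, equal medians, limma-voom on recovered reads with directly computed TMM factors, a replicate block and each library left out.

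Members and gene lists were chosen with earlier results of these data known. Genes were named by a rule: called members, H1f0, the 3 highest members of each class, the members of lowest p and of highest and lowest fold change, up to 3 genes of smallest p in each other list, Slbp and Npat. All others in the text were picked with their values in view. Shared windows are 100-base stretches found in transcripts of another GENCODE gene. For marker lists of T and NK cells (6 tested) and megakaryocytes (2 tested) limma called 0; of 7 tested mast cell, basophil and eosinophil markers it called 1 higher and 2 lower.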

Additional observations from a re-analysis of the deposited data

How the results depend on the processing

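The count of members called higher, 1 in the report, was 0 with a pseudocount of 0.1, without a filter on level, with a mean of at least 0.3 FPKM and with equal medians, 5 with limma-voom, and 0 to 3 when 1 library was left out. The count called lower, 0 in the report, was 1 with limma-voom and 0 to 1 with 1 library left out. The median log2 fold change of members ran from 0.15 without KO replicate 2 to 0.44 without KO replicate 1, and that of the summed FPKM, 0.45 in the report, from 0.22 to 0.66 over the same. Over all rows, 71 were higher and 48 lower in the report; limma-voom gave 406 and 364, no filter 22 and 10, the 0.3 FPKM filter 30 and 20, equal medians 48 and 34, and libraries left out 4 to 50 and 2 to 14. Leaving a library out leaves 1 sample in an arm, which is then assumed to vary like the other group.

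Signs reversed with 1 library left out for 6 genes, whose log2 fold changes then ran from −0.030 to 0.36 for H1f0, −1.003 to 0.16 for Hist1h2ap, −0.052 to 0.23 for H2ac11, −0.17 to 0.15 for H2bc4, −0.26 to 0.059 for H1f10 and −0.068 to 0.14 for Slbp. With equal medians Slbp came to −0.0051. With limma-voom, lists at 0 limma calls in the report gave 1 variant lower, 1 chaperone and 1 DNA replication gene higher, 1 mitosis gene higher and 4 lower, 1 progenitor and leukaemia marker higher and 4 lower, and 2 T and NK cell markers higher and 1 lower. Over all rows limma-voom called 3.53% higher and 3.16% lower. The causes of these changes with the setting were not tested.

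Libraries of the same number did not deviate together (correlation 0.01 across rows, 2 pairs), so the numbers are treated as shared names only. With the replicate block 1 member was called higher and 0 lower, H1f4 (1.53, adjusted p = 0.0327 by limma) in place of H1f5 (1.16, adjusted p = 0.0553), and 40 rows higher and 26 lower overall. Precision rests on 2 libraries per group, and members under 1 FPKM were too low to test.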
